A study of Mus musculus with 401 samples.

Results

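The 9 genes described here act in cumulus expansion and in the epidermal growth factor (EGF) signalling that starts it. They are the matrix genes Has2, Vcan, Tnfaip6 and Ptx3, the prostaglandin synthase gene Ptgs2, the EGF-like ligand genes Areg, Ereg and Btc, and the receptor gene Egfr. They were chosen by name and not by a ranking of their values, though with earlier results of these data known. They are 9 of the 43633 gene IDs found in either of the count tables, of which the first held 41092 and the second 42349. All 9 were present in both tables. Each of the 401 deposited libraries held either a single oocyte or the pooled cumulus cells around it, taken from fully grown follicles of female B6D2F1 (C57BL/6 x DBA/2) mice and sequenced by RamDA-seq, a method that copies total RNA along whole transcripts. The comparisons ask how age, calorie restriction (CR) and hyperovulation bear on the level of each gene.

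In the first set, all mice were hyperovulated. It held young mice of 2 months (15 cumulus and 16 oocyte libraries from 2 mouse labels), middle mice of 9 months (15 and 14 from 4) and old mice of 14 months (16 and 16 from 2), all fed ad libitum, and CR mice of 9 months (25 and 27 from 3), restricted from early adult life until collection. In the second set, all mice were fed ad libitum. It held hyperovulated mice of 2 months (24 cumulus and 24 oocyte libraries from 5 labels), 4 months (40 and 39 from 8), 9 months (16 and 16 from 4) and 14 months (16 and 16 from 5), and mice of 2 months without hyperovulation (32 and 32 from 8). Hyperovulation was done with equine chorionic gonadotropin (eCG), which acts like follicle stimulating hormone, or with CARD HyperOva, and the labels do not say which agent a mouse received. The methods name no ovulatory dose of luteinizing hormone (LH) or human chorionic gonadotropin before collection. All complexes were dissected in medium with IBMX, an inhibitor of cAMP breakdown, and all oocytes were at the germinal vesicle stage. No strain other than B6D2F1 was used, and 1 label of the old group joined 2 mice.

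As background, LH acts on the outer granulosa cells of a preovulatory follicle, which release the EGF-like ligands amphiregulin, epiregulin and betacellulin. These bind the EGF receptor on cumulus cells, where the receptor's signal, together with factors secreted by the oocyte, switches on Has2, Ptgs2, Tnfaip6 and Ptx3. The hyaluronan that follows is cross-linked by proteins into an elastic matrix, the cumulus mass expands and the oocyte resumes meiosis.

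On GRCm38, Has2 (ENSMUSG00000022367, hyaluronan synthase 2) lies on the minus strand at chr15:56665627-56694539 and Vcan (ENSMUSG00000021614, the hyaluronan-binding proteoglycan versican) on the minus strand at chr13:89655312-89742509. Tnfaip6 (ENSMUSG00000053475, which moves protein chains onto hyaluronan) lies on the plus strand at chr2:52038009-52056686, Ptx3 (ENSMUSG00000027832, a pentraxin that ties the matrix together) on the plus strand at chr3:66219910-66225805 and Ptgs2 (ENSMUSG00000032487, the inducible prostaglandin synthase) on the plus strand at chr1:150100031-150108227. The 3 ligand genes lie near one another, with Ereg (ENSMUSG00000029377) at chr5:91074622-91093646 and Areg (ENSMUSG00000029378) at chr5:91139599-91148432 on the plus strand and Btc (ENSMUSG00000082361) at chr5:91357261-91402994 on the minus strand. Egfr (ENSMUSG00000020122) lies on the plus strand at chr11:16752203-16918158. Strand was not used in counting as far as the sources state, so reads of Has2, Ereg, Egfr and Vcan cannot be told apart from reads of their antisense partners Has2os, Gm19610, Egfros and Gm4117 where these overlap. Vcan also overlaps the processed pseudogene Gm16318, and Ptx3 lies within Veph1 on the other strand. For Has2, the nonzero counts were fractions in 24.3% of cases in the first table and 21.7% in the second, which marks reads shared with another gene or place.

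Promoter windows of 7 of the 9 genes were found in the RefSeq table (build GRCm38.p6), each from 250 bases before to 50 bases after the start. The windows shown hold motifs of factors that act below cAMP and the EGF receptor, and the TATA element of 1 promoter, with the motif in capitals. The full cAMP response element TGACGTCA, searched on both strands, was in 1.79% of all 32851 promoters and in 1 of the 7, with its first base 61 bases before the Areg start (chr5:91139530-91139553, plus strand).
Areg, cAMP response element: ctggtccgTGACGTCAcgggcggt
The TATAAA motif, in 13.6% of all promoters, was also in Areg alone among the 7 (chr5:91139560-91139581, plus strand).
Areg, TATA: agcgggtcTATAAAagcagcag
The AP-1 motif TGACTCA was in 5.2% of all promoters and in 1 of the 7, on the minus strand of the Tnfaip6 window (chr2:52037963-52037985, plus strand shown).
Tnfaip6, AP-1: aatgcaaaTGAGTCAgagggctt
The shorter core TGACG, which also lies within the full element, was in 20.8% of all promoters and in those of Areg, Btc and Ptgs2 (Btc, chr5:91403095-91403115, minus strand shown).
Btc, core: aaatgaacCGTCAggtgagac
A motif match is a description of these letters and no measure of binding.

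Levels are given in CPM, the count of a gene divided by the total count of all genes in megacounts, after summing the libraries of 1 cell type from 1 mouse label. Total counts per library ranged from 848243 to 2501005 in cumulus cells and from 559305 to 4536690 in oocytes of the first set, and from 510029 to 1147286 and from 1238441 to 2583456 in the second. All 13 cumulus and granulosa markers were detected at 1 CPM or more in cumulus cells of both sets, and their summed level ranged from 8949 to 22340 CPM over mice. The 12 oocyte markers, all detected in oocytes, summed to 8.85 to 47.0 CPM in cumulus libraries and to 15800 to 24570 CPM in oocyte libraries. The cumulus markers summed to 126 to 1383 CPM in oocyte libraries of the first set and to 85.2 to 192 CPM in the second. In cumulus libraries 5 theca markers summed to 91.4 to 364 CPM over the mice of both sets, 6 stroma markers to 3.71 to 78.6 CPM, 6 immune markers to 3.81 to 31.6 CPM, 5 endothelium markers to 2.15 to 20.8 CPM and 4 surface epithelium markers to 0.0 to 3.16 CPM. Both libraries of 1 complex of a middle mouse were left out, because its oocyte library had a mean correlation of 0.700 with oocyte and of 0.908 with cumulus libraries.

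In cumulus cells, versican and the EGF receptor stood far above the other 7 genes. Per kilobase of gene length, Vcan was at 72.5 ± 10.9 CPM (SD, n = 11 mouse labels) in the first set and 55.9 ± 16.96 CPM (n = 30) in the second, and Egfr at 25.3 ± 5.67 and 21.1 ± 5.32 CPM. The ranges of the mice did not overlap between Egfr and the next gene in either set, and overlapped between Vcan and Egfr in the second set only. Has2, Btc, Tnfaip6 and Ptgs2 followed, at 1.07, 1.01, 0.502 and 0.438 CPM per kilobase in the first set and at 1.29, 0.966, 2.29 and 0.966 in the second. Ptx3 was at 0.0957 and 0.312, and the ligands Areg and Ereg were the lowest, both under 0.1 CPM per kilobase in both sets. From the third gene on, the ranges of all neighbours in this order overlapped. Over all libraries of both cell types, Areg had 6 and 12 counts in the sets, and Ereg 10 and 31, against 117994 and 86872 for Vcan, so changes in Areg and Ereg rest on single reads. Ptx3 had 37.5 and 87.0 counts and Tnfaip6 93.2 and 407. The complexes held abundant receptor and proteoglycan RNA and little RNA of the ligands, with betacellulin the most abundant of the 3.

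**Figure D1:**
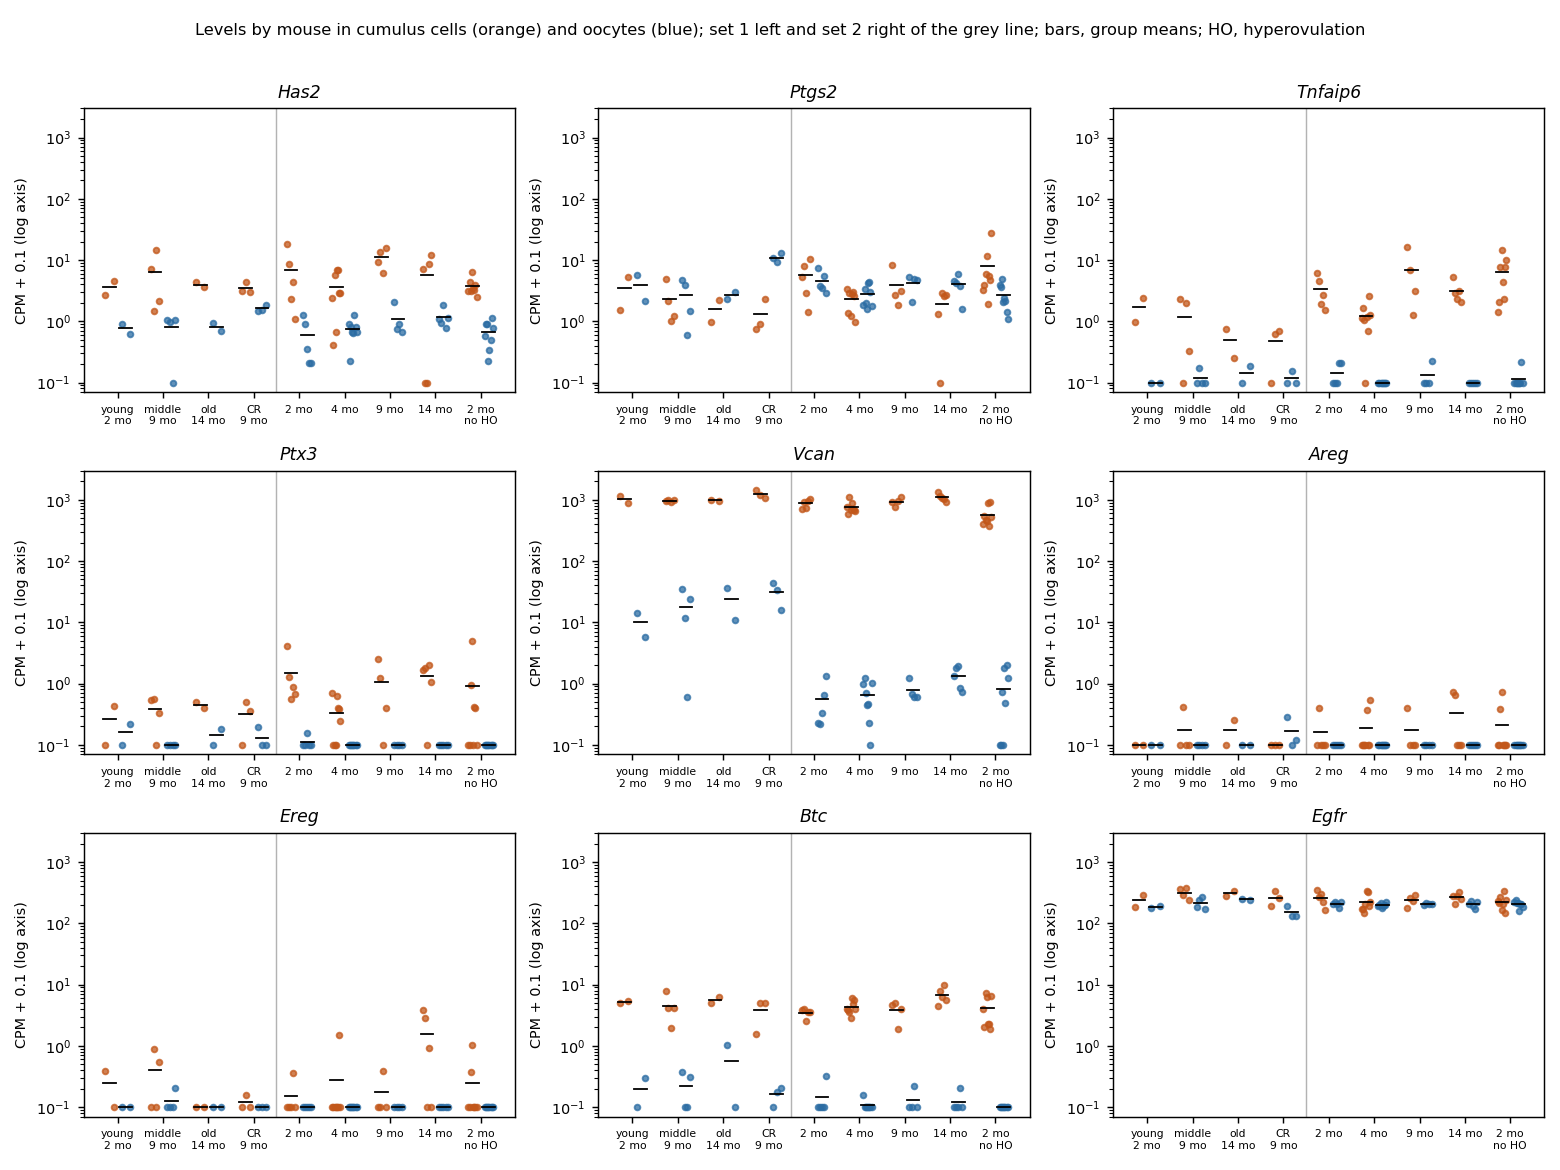
Levels of the 9 genes by group on a log axis of CPM + 0.1, with 1 point per mouse label, cumulus cells in orange, oocytes in blue and a bar at each group mean; the first set lies left and the second right of the grey line, and HO stands for hyperovulation. Vcan and Egfr lie far above the other genes in cumulus cells, Areg and Ereg lie at or near 0, and Ptgs2 in oocytes of CR mice lies between 9.09 and 12.9 CPM, above the other groups of its set.

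The age comparisons of the first set called no member in cumulus cells. Vcan was at 876 and 1150 CPM in the 2 young labels, at 919, 944, 991 and 1006 in the 4 middle labels and at 966 and 994 in the 2 old labels. The middle and old values all lay between those of the young mice. Egfr was at 186 and 291 CPM in young, at 241, 290.5, 360.3 and 381 in middle and at 281 and 337 in old mice, and the groups overlapped. Has2 ranged from 1.39 CPM to 14.4 CPM within the middle group alone, the highest of which was a label with 1 library. By edgeR's quasi-likelihood test with Benjamini-Hochberg adjustment over all genes, 0 of 8 members tested changed from young to middle, where 0.00378% of all 26461 genes were called. From young to old, 0 of 8 changed against 0.0227% of all genes, and from middle to old 0 of 8 against 0.0%. In these 3 comparisons 1371, 1025 and 527 of all genes had an unadjusted p under 0.05, as did no member in the first 2 and 1 in the last, Ereg, which had 0 counts in old mice and 7 in middle mice. DESeq2 called 0 members in the 3 comparisons, and 11, 11 and 0 genes. Areg was in too few libraries to be tested. The gene whose mice did not overlap between young (0.870 and 2.34 CPM) and old (0.151 and 0.644 CPM) was Tnfaip6, with a log2 difference of -1.99 (SE 1.21, adjusted p = 1.0). With 2 labels in each group a lack of overlap says little, and its share over all genes was not computed. With single libraries in place of mice as replicates, Tnfaip6 passed the threshold (log2 difference -1.94, adjusted p = 0.0441). Mouse labels are the replicates of the reported tests, and complexes of 1 mouse are not. The reported tests set a difference against the variation between labels, and the fit on libraries sets it against that between libraries.

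In the second set, with more mice at each age, again no member passed the threshold in cumulus cells, and Ptgs2, Tnfaip6 and Ptx3 had lower means at 4 than at 2 months. Ptgs2 was at 1.31, 2.75, 5.22, 8.03 and 10.2 CPM in the 5 mice of 2 months. In the 8 mice of 4 months its lowest, median and highest values were 0.874, 2.59 and 3.24 CPM. Tnfaip6 was at 1.42, 1.83, 2.62, 4.46 and 6.14 CPM at 2 months and at 0.0, 1.05 and 2.51 (lowest, median, highest) at 4 months. The 2 groups overlapped for both genes, with 4 months lower on average. The log2 difference was -1.34 for Ptgs2 (SE 0.54), -1.54 for Tnfaip6 (SE 0.60) and -2.26 for Ptx3 (SE 0.90), and all had an adjusted p of 0.818. In this comparison 0 of 9 members and 0.0% of all 27237 genes were called, 3 members and 1619 of all genes had an unadjusted p under 0.05, and DESeq2 called 0 members and 1 gene. With libraries as replicates, Ptx3 passed (log2 difference -1.81, adjusted p = 0.0499).

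At 9 months, Has2 and Tnfaip6 had their highest means among the hyperovulated groups of the second set, without passing the test. Has2 was at 5.99, 9.15, 13.6 and 15.6 CPM in the 4 mice of 9 months and at 0.994, 2.21, 4.33, 8.48 and 18.4 CPM in those of 2 months. Tnfaip6 was at 1.17, 2.998, 6.80 and 16.2 CPM at 9 months, so that 1 mouse held most of the signal. The log2 differences from 2 months were 0.74 (SE 0.62, adjusted p = 0.760) and 1.09 (SE 0.60, adjusted p = 0.642). Here 0 of 9 members were called against 0.0771% of all genes, with an unadjusted p under 0.05 for 0 members and 2204 genes and DESeq2 calls for 0 members and 23 genes.

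At 14 months, the fitted level of betacellulin RNA was 1.98-fold that at 2 months, without passing the test. Btc was at 4.31, 5.53, 6.06, 7.78 and 9.87 CPM in the 5 mice of 14 months. It was at 2.44, 3.41, 3.41, 3.69 and 3.87 CPM in the 5 mice of 2 months, so every mouse of 14 months was above every mouse of 2 months. The log2 difference was 0.99 (SE 0.36, unadjusted p = 0.00910), with an adjusted p of 0.499. Epiregulin RNA was detected in 5 of 16 cumulus libraries at 14 months with 20 counts in all, of which 12 were in 1 complex at 13.3 CPM, and in 1 of 24 libraries at 2 months with 1 count. Its mice were at 0.0, 0.0, 0.823, 2.78 and 3.69 CPM at 14 months and overlapped those of 2 months (0.0 to 0.262 CPM), and its adjusted p was 0.376. With libraries as replicates its adjusted p was 0.00266, a value that rests on these few reads. Ptgs2 had a lower mean at 14 months, with mice at 0.0, 1.23, 2.47, 2.60 and 2.75 CPM (log2 difference -1.52, SE 0.67, adjusted p = 0.566). Versican was at 914, 1037, 1067, 1154 and 1329 CPM, with a log2 difference of 0.30 (SE 0.20, adjusted p = 0.749). In this comparison 0 of 9 members were called against 0.0734% of all genes. Of the 9, 1 did not overlap, and the share of all genes without overlap was not computed. An unadjusted p under 0.05 was found for 3 members and 2178 genes, and DESeq2 called 0 members and 29 genes. The median log2 difference of the members was -0.02 and that of all genes -0.03. From 9 to 14 months 0 of 9 members and 0.0% of all genes were called by edgeR, with an unadjusted p under 0.05 for 2 members (Btc, log2 difference 0.80, and Ereg) and 1782 of all genes, and DESeq2 called 0 members and 1 gene.

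The age effects of both sets were then compared in 1 fit. The difference between the sets in the effect of 9 months against 2 months was called for 0 of 9 members and 0.0% of 26830 genes, and that of 14 months against 2 months for 0 of 9 and 0.0%. For Btc the effect of 14 months differed by 0.96 (SE 0.53, unadjusted p = 0.0829) on the log2 scale, and in the first set Btc was at 4.93 and 5.21 CPM in young and at 4.87 and 6.18 CPM in old mice (log2 difference 0.06, SE 0.54). Its effect of 9 months differed by 0.38 (SE 0.53). At an unadjusted p under 0.05 stood 0 members and 931 genes in the first and 1 member (Ereg) and 975 genes in the second, and DESeq2 called 0 members and 0 genes in either. The largest gap at 9 months was that of Tnfaip6, at 2.29 (SE 1.11, unadjusted p = 0.0503).

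**Figure D2:**
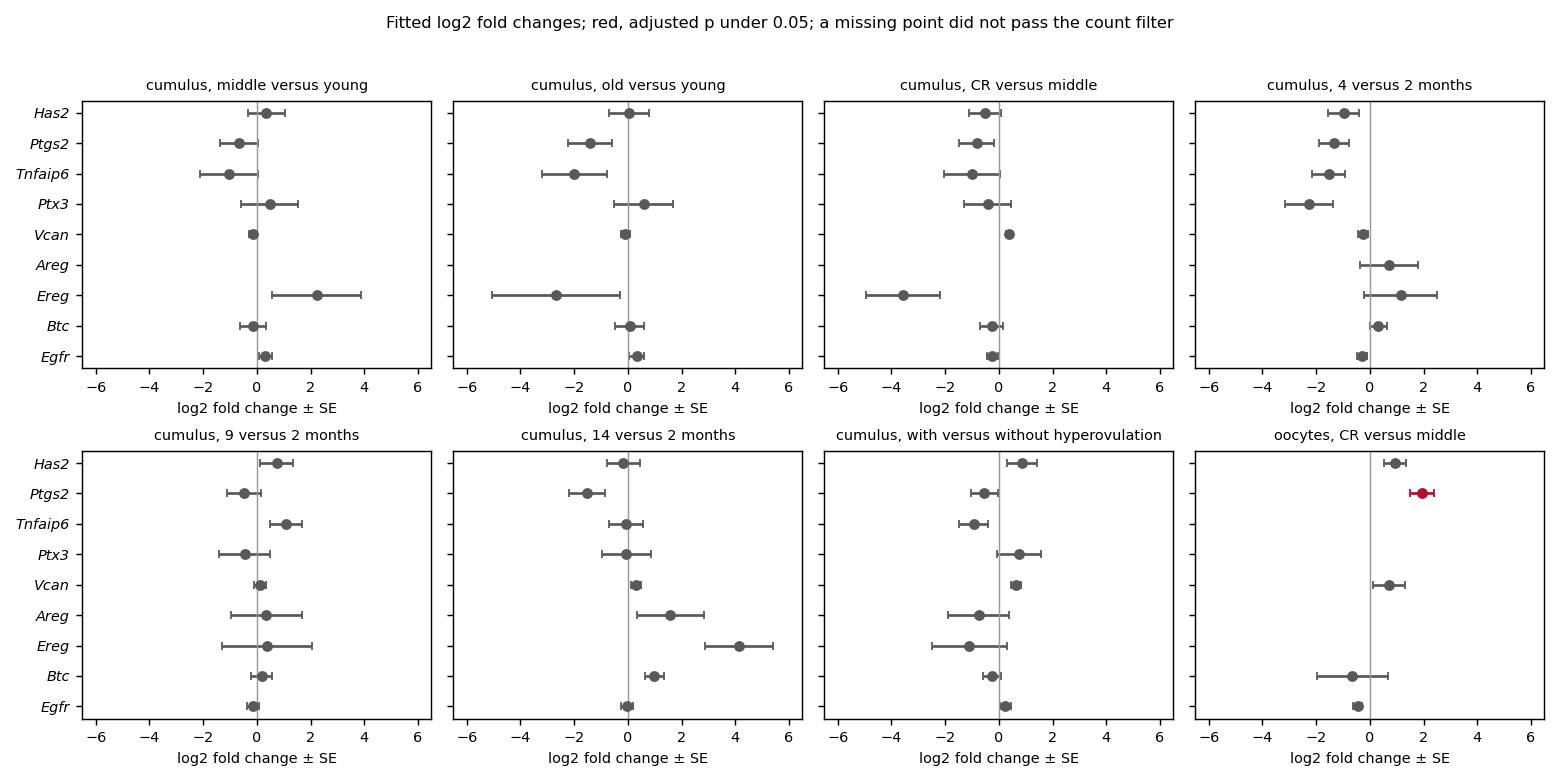
Fitted log2 fold changes of the 9 genes with bars of 1 SE, from edgeR's quasi-likelihood fit on counts summed per mouse label, in 7 comparisons of cumulus cells and 1 of oocytes; a red point has an adjusted p under 0.05 and a missing point did not pass the count filter. The 1 red point is Ptgs2 in oocytes of CR against middle mice, and the widest bars are those of Ereg and Areg, which rest on few counts.

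Vcan had a higher mean in cumulus cells of CR than of middle mice, a difference that did not pass the threshold over all genes. Vcan was at 1072, 1189 and 1428 CPM in the 3 CR labels and at 919 to 1006 CPM in the 4 middle labels of the same age. All CR mice were above all middle mice, and the log2 difference was 0.38 (SE 0.12, unadjusted p = 0.00866, adjusted p = 0.307). Egfr was at 189, 264 and 332 CPM in CR mice, within and below the range of middle mice (log2 difference -0.24, SE 0.22). Has2, Ptgs2, Ptx3, Tnfaip6 and Btc had lower fitted means in CR mice with adjusted p-values from 0.703 to 0.926. Ereg had 1 count in CR and 7 counts in middle cumulus cells (unadjusted p = 0.0247, adjusted p = 0.406). Of the 8 members tested 0 were called, against 0.0642% of all genes. Between the groups 1 of the 8 did not overlap, and the share of all genes without overlap was not computed. An unadjusted p under 0.05 was found for 2 members and 2801 of all genes, and DESeq2 called 0 members and 368 genes. The median log2 difference of the members was -0.47 and that of all genes 0.04. The CR cumulus libraries had a median total of 2019007 counts and the middle ones 1091806, and with the CR libraries drawn down at random to that depth the Vcan difference was 0.38 (adjusted p = 0.327).

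In oocytes, Ptgs2 was the 1 member called between CR and middle mice, with a higher level in CR, though not under every alternative. It was at 9.09, 10.7 and 12.9 CPM in the 3 CR labels and at 0.4932, 1.39, 3.84 and 4.58 CPM in the 4 middle labels. Young oocytes were at 2.05 and 5.55 CPM and old ones at 2.21 and 2.95 CPM, so all CR mice were above all other mice of the first set. All 27 CR oocyte libraries held a Ptgs2 count, from 2.94 to 21.1 CPM, with 1088 counts in all. The log2 difference between CR and middle was 1.95 (SE 0.44, 3.86-fold), with an adjusted p of 0.0168. Of the 5 members in enough oocyte libraries to be tested (Has2, Ptgs2, Vcan, Btc and Egfr) 1 was called, against 7.67% of all 27124 genes. The median log2 difference of the 5 was 0.71 and that of all genes 0.01. The call was lost when both libraries of the left-out complex were included (adjusted p = 0.0822) and without the third CR label (0.0754), and it held with each of the other 6 mice left out. CR oocyte libraries were deeper, with a median of 3578882 counts against 2332126, and with their counts drawn down at random to the middle median the difference was 1.87 (adjusted p = 0.0205). Cumulus cells of the same CR complexes held less Ptgs2 than their oocytes, at 0.651, 0.793 and 2.24 CPM.

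Has2 and Egfr had differences of opposite sign in CR oocytes, neither of which passed the threshold. Has2 was at 1.39, 1.43 and 1.78 CPM in CR and at 0.0 to 0.964 CPM in middle oocytes, which did not overlap (log2 difference 0.94, SE 0.41, adjusted p = 0.186). Of the 5 members tested 2 did not overlap, Has2 and Ptgs2, and the share of all genes without overlap was not computed. By edgeR 3 members and 6139 of all genes had an unadjusted p under 0.05. Egfr was at 132, 133 and 189 CPM in CR and at 174, 185, 238 and 268 CPM in middle oocytes, with an overlap of 1 CR mouse (log2 difference -0.45, SE 0.16, adjusted p = 0.111). Egfr passed with DESeq2 (adjusted p = 0.0359), with every gene that had a count (0.0413) and with libraries as replicates (0.000276). Vcan in oocyte libraries was at 15.96, 33.7 and 44.3 CPM in CR and at 0.4932 to 35.4 CPM in middle mice (adjusted p = 0.522). The 13 cumulus markers, whose part in these values was not tested, summed to 126 to 1203 CPM in middle oocyte libraries and to 346 to 778 CPM in CR ones.

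In oocytes no member was called for old against young, for 14 against 2 months or with hyperovulation, the comparisons run besides CR. Egfr was at 181 and 193 CPM in the 2 young and at 241 and 254 CPM in the 2 old labels of the first set, which did not overlap (log2 difference 0.28, SE 0.21, adjusted p = 0.634). With 2 labels in each group a lack of overlap says little, and its share over all genes was not computed. In the second set Egfr was at 173 to 233 CPM at 14 months (mean 205, n = 5) and at 208 ± 18.7 CPM at 2 months (SD, n = 5), with a log2 difference of -0.02 (SE 0.08). Has2 was at 1.06 ± 0.395 CPM at 14 months and 0.486 ± 0.470 CPM at 2 months (log2 difference 1.26, SE 0.50, adjusted p = 0.347). From young to old, 0 of 5 members and 0.0% of all genes were called by edgeR, while 0 members and 2654 genes had an unadjusted p under 0.05 and DESeq2 called 0 members and 10 genes. From 2 to 14 months 0 of 5 members were called against 0.217% of all 25850 genes, 1 member and 2566 genes had an unadjusted p under 0.05, and DESeq2 called 0 members and 179 genes. With and without hyperovulation Ptgs2 was at 4.48 ± 1.83 CPM (n = 5) and 2.61 ± 1.34 CPM (n = 8) in oocytes, a log2 difference of 0.75 (SE 0.31, unadjusted p = 0.0204, adjusted p = 1.0). In that comparison 0 of 5 members and 0.0% of all genes were called, 1 member and 1170 genes had an unadjusted p under 0.05, and DESeq2 called 0 members and 0 genes.

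Versican was the member with the lowest p between cumulus cells with and without hyperovulation, and did not pass the threshold in the reported fit. In cumulus cells of the 5 hyperovulated mice of 2 months Vcan was at 720.0, 742, 929, 941 and 1048 CPM. In the 8 mice without hyperovulation the lowest, median and highest values were 367, 501 and 915 CPM. Of the 8, 6 lay below every hyperovulated mouse and the other 2, at 898 and 915 CPM, lay within their range. The log2 difference was 0.63 (SE 0.18, 1.55-fold, unadjusted p = 0.00115), with an adjusted p of 0.0535, just outside the 5% threshold. It was 0.0315 with DESeq2, 0.0356 with the label prefix (B1 or B2, a mark whose meaning the labels do not give) as a covariate and 0.0723 with another normalization (RLE), and it ranged from 0.0153 to 0.163 with each mouse left out in turn. Among labels with B1 Vcan averaged 797 CPM with (n = 3) and 678 CPM without hyperovulation (n = 4) and the mice overlapped. Among those with B2 it averaged 994 CPM (n = 2) and 467 CPM (n = 4), and they did not.

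**Figure D3:**
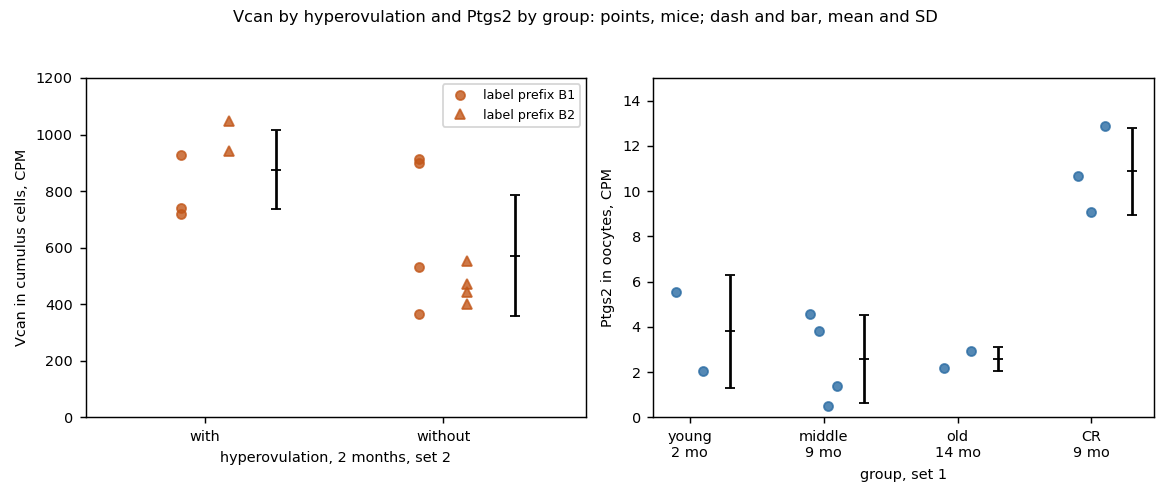
The left panel shows Vcan in cumulus cells of mice of 2 months with and without hyperovulation, with circles for label prefix B1 and triangles for B2, and the right panel Ptgs2 in oocytes of the 4 groups of the first set, both in CPM with 1 point per mouse label and a dash and bar for the mean and SD. Of the 8 mice without hyperovulation 6 lie below all 5 hyperovulated mice in Vcan, and the 3 CR labels lie above all others in Ptgs2.

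Among the other members, the means of Has2, Ptx3 and Egfr were higher and those of Ptgs2, Tnfaip6, Areg, Ereg and Btc lower with hyperovulation, and none passed the test (adjusted p from 0.404 to 0.810). Has2 was at 0.994, 2.21, 4.33, 8.48 and 18.4 CPM with and at 2.35, 3.26 and 6.30 CPM (lowest, median, highest) without hyperovulation (log2 difference 0.86, SE 0.57). Tnfaip6 was at 3.30 ± 1.97 CPM (n = 5) with and at 6.20 ± 4.68 CPM (n = 8) without (log2 difference -0.94, SE 0.53, adjusted p = 0.404). Ptgs2 was at 5.51 ± 3.67 CPM with and at 7.93 ± 8.26 CPM without (log2 difference -0.55, SE 0.50, adjusted p = 0.657). Mean Has2 was higher with hyperovulation among labels with B1 (9.71 against 3.17 CPM) and lower among those with B2 (2.66 against 4.16 CPM), as was Egfr (309.5 against 231 and 194 against 220.3 CPM; log2 difference over both 0.24, SE 0.20). Of the 9 members 0 were called by edgeR, against 1.99% of all 27237 genes (326 higher and 215 lower with hyperovulation), 1 had an unadjusted p under 0.05 against 4188 of all genes, and DESeq2 called 1, Vcan, of 1056 genes in all. The median log2 difference of the members was -0.26 against -0.02 for all genes.

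Without hyperovulation Tnfaip6 had a count in 29 of 32 cumulus libraries, Ptgs2 in 23 and Ptx3 in 5. In hyperovulated mice of 2 months these were 17, 19 and 10 of 24 libraries. Some complexes held high values of these genes. In 1 complex of a mouse without hyperovulation Ptgs2 was at 98.4 CPM with 83 counts, and it also held 20.1 CPM of Tnfaip6, 270.2 CPM of Vcan and 2.37 CPM of Inhbb, a subunit of inhibin and activin. In a complex of another such mouse Ptgs2 was at 20.3, Ptx3 at 19.1, Tnfaip6 at 28.6 and Has2 at 11.3 CPM, with Vcan at 191 CPM and Inhbb at 4.77 CPM. In these 2 complexes Vcan and Inhbb were below the means of their group, at 572 and 1139 CPM. The highest Tnfaip6 and Has2 of all complexes were in 1 hyperovulated mouse of 9 months, at 39.8 and 35.5 CPM, with Inhbb at 3967 CPM. These complexes were picked for their high values, and the values are a description.

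Of the 13 cumulus and granulosa markers, 5 were higher and 0 lower with hyperovulation, where 1.99% of all genes were called in either direction. Inhba, another inhibin and activin subunit, was at 1715 ± 511 CPM with and 419 ± 360.1 CPM without (log2 difference 2.05, SE 0.44, adjusted p = 0.00977 by edgeR), and Cyp19a1, the aromatase gene, at 153 ± 83.2 and 46.7 ± 26.6 CPM. Inhbb (3417 ± 888.5 against 1139 ± 753 CPM), Fshr, the receptor of follicle stimulating hormone, and Gja1, a gap junction gene, were also higher. Of 13 ERBB receptors and feedback regulators 0 were higher and 1 lower, Errfi1, an inhibitor of the EGF receptor, at 36.9 ± 6.88 CPM with and 133 ± 109 CPM without (log2 difference -1.85, SE 0.43, adjusted p = 0.0167). Errfi1 is also the 1 lower gene among 19 ovulatory response genes tested, with 0 higher. Of 14 immediate early genes 0 were higher and 3 lower, Nr4a2 (14.2 ± 5.82 against 57.2 ± 30.6 CPM), Atf3 (38.6 against 82.2 CPM) and Egr3 (3.31 against 12.1 CPM). Of 23 hyaluronan and matrix genes tested, Hmmr was higher (55.4 against 35.4 CPM) and Sdc4 lower (69.1 against 134 CPM). Of 11 prostaglandin genes tested 1 was higher, Pla2g4a, which frees the substrate of prostaglandin synthesis (72.6 against 45.7 CPM). Of 9 EGF-like ligands and sheddases and of 13 tested oocyte factors and their receptor and SMAD genes 0 were called. The median log2 difference was 0.35 for the cumulus and granulosa markers, -0.14 for the ERBB list, -0.08 for the ligands and sheddases, -0.30 for the matrix list, -0.50 for the ovulatory response list and -0.40 for the immediate early list, against -0.02 for all genes. Of these genes Cyp19a1, Fshr, Gja1, Inhbb, Atf3, Hmmr, Sdc4 and Pla2g4a were named after their values were seen. Of the endothelium markers 1 of 5 was higher (Cdh5, 4.76 against 1.09 CPM), and of the theca, stroma, immune, surface epithelium and oocyte markers 0 were called. The immediate early genes, which can rise during tissue handling, summed to 3001 to 13290 CPM over the 8 mice without hyperovulation and to 4839 to 9338 CPM over the 5 with it, and their part in the other differences was not tested. In the other 8 comparisons of cumulus groups no gene of these lists was called.

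Oocytes held little RNA of the cumulus matrix genes but nearly as much EGF receptor RNA as cumulus cells. In the second set Vcan was at 808 CPM in cumulus and 0.708 CPM in oocyte libraries, and lower in the oocytes of 30 of 30 mice (log2 difference -9.65, SE 0.15, adjusted p = 1.98e-37, edgeR with the mouse as a block). From cumulus to oocyte Btc fell by 6.36 on the log2 scale, Tnfaip6 by 6.31 and Has2 by 2.35. These rest on few oocyte counts, 5 for Btc, 4 for Tnfaip6 and 181 for Has2 over 127 libraries, and Ptx3 had 1 count there. Areg and Ereg had 0 counts in all oocyte libraries of the second set, where 3 counts would be 0.0374 to 0.0894 CPM in a group. In the first set the same genes were lower in oocytes by less, with log2 differences of -5.07 for Vcan, -4.08 for Btc, -3.74 for Tnfaip6, -2.43 for Ptx3 and -1.06 for Has2. The call for Ereg rests on 10 counts, of which 1 was in an oocyte library, and was lost with DESeq2 (adjusted p = 0.678). Called were 8 of 8 members tested in the first set against 82.9% of all 32407 genes, and 8 of 9 in the second against 90.3% of 33123, so a call says little here and the sizes are the result. Dilution of the lysates differed between oocytes and cumulus cells. Levels are shares of the RNA read and not amounts per cell, so amounts per cell cannot be compared between the cell types. In a pool of cumulus cells, a level does not show how many of the cells held the RNA.

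RNA of genes typical of cumulus cells was also read in oocyte libraries, at higher levels in the first set. Vcan in an oocyte library was at a median of 0.770% of the cumulus median (highest 24.02%) in the first set and of 0.0597% (highest 0.617%) in the second. Inha, the inhibin alpha subunit made by granulosa cells, was at 1.83% (highest 32.96%) and 0.338% (highest 1.99%). Over the 73 oocyte libraries of the first set the log2 levels of Vcan and Inha had a correlation of 0.824, and over the 127 of the second of 0.509, libraries of the same mice included. The part of cumulus RNA in the oocyte values of Vcan, Btc, Tnfaip6, Ptx3 and Has2 was not tested.

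Egfr and Ptgs2 departed from this pattern. Egfr was at 199 CPM in oocytes and 287 CPM in cumulus cells of the first set and at 204 and 239 CPM in the second. It was lower in the oocytes of 11 of 11 mice in the first set and of 19 of 30 in the second. The direction of its fitted difference depended on the scaling, with 0.29 (SE 0.12) and 0.31 (SE 0.07) in the 2 sets by edgeR's TMM factors, -0.07 in the first set by RLE factors, and -0.53 and -0.19 with library totals alone. Ptgs2 was higher in oocytes than in cumulus cells in 8 of 11 mice of the first set, at 5.06 against 2.01 CPM (log2 difference 2.19, SE 0.44). This gap was widest in CR mice, with group means of 10.88 CPM in oocytes and 1.227 CPM in cumulus cells. The means were nearer in young (3.8 and 3.332 CPM), middle (2.574 and 2.194 CPM) and old mice (2.579 and 1.484 CPM). In the second set Ptgs2 was higher in the oocytes of 17 of 30 mice, at 3.36 against 4.43 CPM (log2 difference 0.27, SE 0.24, adjusted p = 0.287, and -0.22 with library totals alone). Over single complexes with both libraries Egfr was higher in the oocyte in 17 of 70 and 47 of 127, Ptgs2 in 48 of 70 and 61 of 127 and Vcan in 0 of 70 and 0 of 127. Levels in an oocyte and in its own cumulus cells, over the 70 and 127 complexes of the sets, had within-mouse correlations of 0.0746 and 0.0033 for Egfr, of 0.315 and 0.155 for Ptgs2 and of 0.0989 and 0.249 for Vcan.

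Of the ligands and receptors around Egfr, some had higher mean CPM in oocytes and others in cumulus cells. In the second set Egf (21.9 against 0.639 CPM), Nrg1 (35.7 against 0.0709 CPM), Nrg4 (114 against 16.8 CPM), Erbb4 (6.81 against 0.223 CPM) and Lrig1, an inhibitor of the receptors (409 against 61.6 CPM), had higher mean CPM in oocytes. Erbb2 (0.181 against 88.6 CPM), the partner receptor without a ligand of its own, and Hbegf (1.91 against 8.28 CPM) had higher mean CPM in cumulus cells. The prostaglandin E synthase Ptges was at 218 CPM in cumulus cells and 1.88 CPM in oocytes, and the receptor gene Ptger2 at 3.58 and 0.138 CPM. The matrix protease gene Adamts1 was at 174 and 0.0414 CPM. These genes were picked from the lists after their values were seen. The genes with the largest differences of all lists were oocyte markers, among them Bmp15, a secreted oocyte factor that acts on cumulus cells (3713 ± 203 and 4447 ± 261 CPM in oocytes of the 2 sets against 0.571 ± 0.863 and 0.0103 ± 0.0561 CPM in cumulus cells), Nlrp5 (1299 and 1333 CPM in oocytes), Zp3 (2086 and 2669 CPM), Zp2 in the first set (2868 CPM) and Oosp1 in the second (875 CPM). Over all genes tested, 13908 and 13914 were higher and 12944 and 16005 lower in oocytes of the 2 sets. Together these were 82.9% and 90.3% of the genes, so a call in a list says little here. In the 2 sets, of 9 EGF-like ligands and sheddases 5 and 5 were higher and 3 and 3 lower in oocytes. Of 13 ERBB receptors and regulators 9 and 7 were higher and 3 and 5 lower, and of the 23 and 24 hyaluronan and matrix genes tested 8 and 8 were higher and 12 and 15 lower. Of 12 prostaglandin genes 3 and 3 were higher and 5 and 8 lower, and of 19 ovulatory response genes 4 and 4 were higher and 10 and 12 lower. Of 14 oocyte factors and their receptor and SMAD genes 10 and 9 were higher and 4 and 4 lower, and of 14 immediate early genes 1 and 1 were higher and 13 and 13 lower.

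In CR oocytes, where 7.67% of all genes were called, the neuregulin gene Nrg1 was higher at 64.7 ± 10.2 CPM (n = 3) against 35.2 ± 14.5 CPM in middle oocytes (n = 4; log2 difference 0.999, SE 0.22, adjusted p = 0.0147 by edgeR). The other called genes of the lists, among 8 to 21 tested in each, were Spred1 of the ERBB list, Ptger3 of the prostaglandin list, Hif1a of the ovulatory list, and Tgfbr1, Bmpr2, Bmpr1b and Smad5 of the oocyte factor list, all higher. Lower were Dusp1 of the immediate early list, Runx1 of the ovulatory list, Hyal2, Adamts4 and Itih5 of the matrix list, and Fgf8, an oocyte factor, at 33.4 ± 3.002 against 69.3 ± 13.1 CPM. Among the markers Kitl, the KIT ligand gene (20.9 ± 7.59 against 8.38 ± 1.79 CPM), and Tek (24.2 ± 4.69 against 12.8 ± 1.61 CPM) were higher and Upk3b lower. Genes named here other than Nrg1, Fgf8, Kitl and Tek were named after their values were seen. In the other 3 comparisons of oocyte groups no gene of these lists was called.

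EGF receptor RNA varied widely between complexes of 1 mouse. The standard deviation of log2 Egfr between cumulus libraries of 1 mouse was 0.965 in the first set (71 libraries) and 0.830 in the second (128), where counting error alone gives 0.0909 and 0.120. The highest complex of a mouse held a median of 4.38 times the Egfr of its lowest in the first set (10 mice with 3 or more libraries, at most 10.5 times) and 2.90 times in the second (28 mice, at most 12.3 times), as ratios of CPM plus 1. In oocytes the same medians were 1.75 and 1.38 times. Vcan varied less between the cumulus libraries of a mouse, with a standard deviation of 0.281 and 0.606 and medians of 1.51 and 2.21 times. In the CR label with 13 libraries, for instance, Egfr ranged from 53.95 to 446 CPM. The 10.5 times of the first set is that of the old label that joins 2 mice, at 39.9 to 427 CPM over 11 libraries. It is therefore not a spread within 1 mouse, and this label enters the other figures of the first set as 1 mouse. The standard deviation within mice was 1.25 and 1.42 for Has2, 1.14 and 1.20 for Ptgs2, 0.933 and 0.932 for Btc and 0.656 and 1.09 for Tnfaip6. Their counting error, from 0.759 to 1.29, was taken without the CPM of 1 added to the levels. Libraries without a count were taken there as having 1 count. At such low counts the 2 measures are on unlike scales, so how far the spread exceeds counting error cannot be said.

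**Figure D4:**
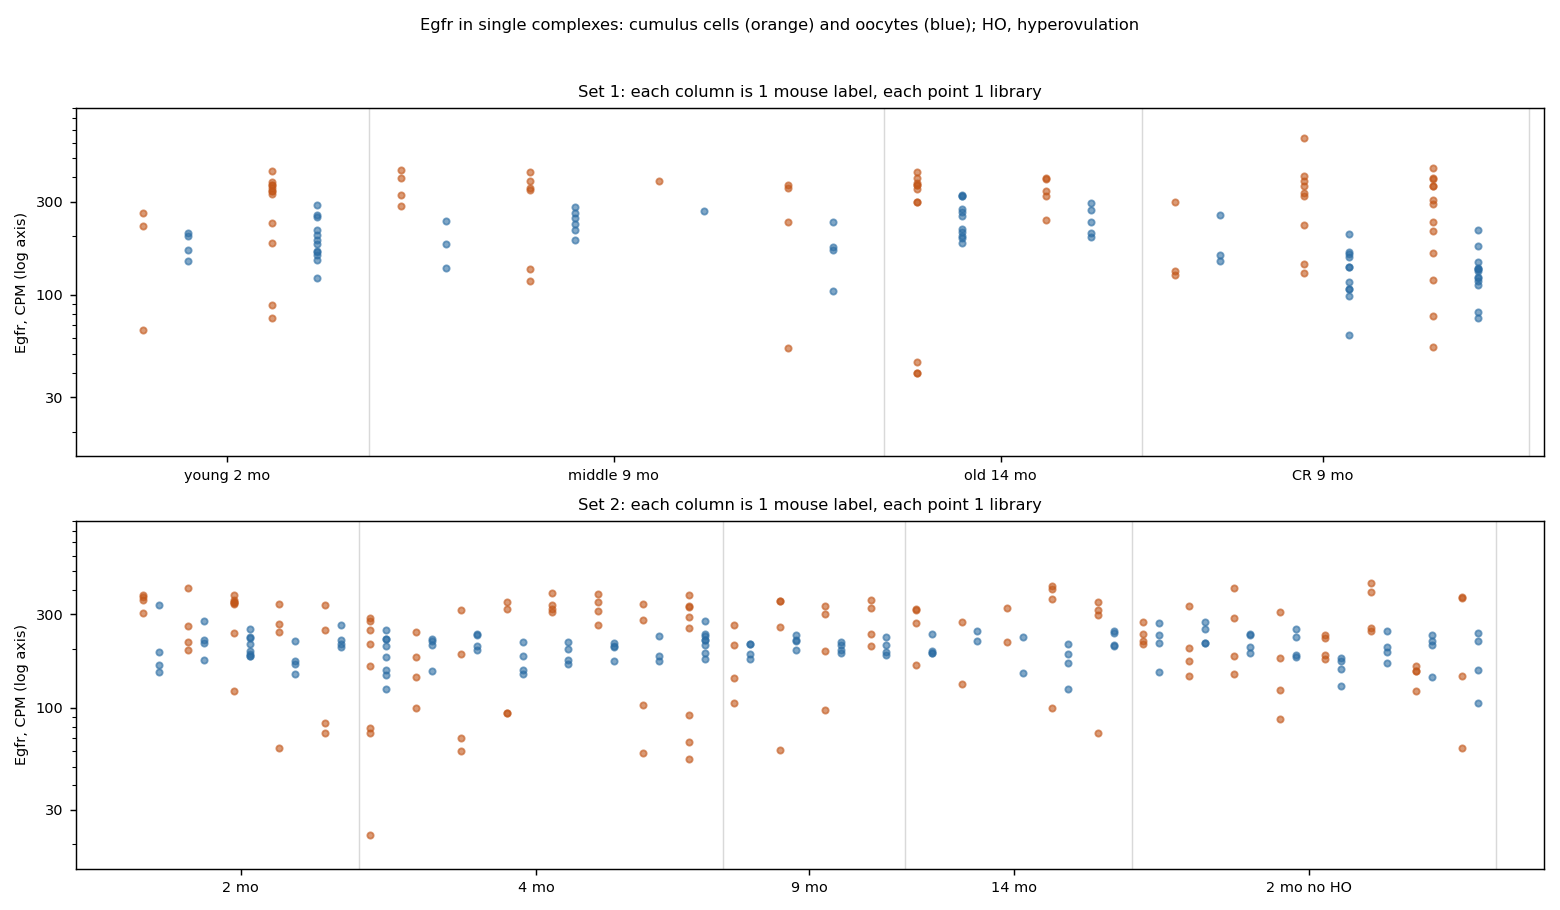
Egfr in single libraries of the first set (upper panel) and the second (lower panel), in CPM on a log axis, with 1 column per mouse label and cell type, 1 point per library, cumulus cells in orange and oocytes in blue. In the mouse of 4 months with the widest spread, cumulus libraries run from 22.4 to 286.5 CPM, and the median spread within a mouse is smaller in oocytes than in cumulus cells.

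Complexes with high Egfr also had high RNA of the inhibin and activin genes and low RNA of Amh, the anti-Müllerian hormone gene. Over complexes within mice, log2 Egfr had correlations with Inhba of 0.937 (first set) and 0.858 (second), of 0.946 and 0.755 with Inhbb, and of 0.932 and 0.841 with Fst, the gene of the activin-binding protein follistatin. With Amh they were -0.832 and -0.814, and with Slc38a3, an amino acid transporter of cumulus cells, -0.711 and -0.623. Among the members, the correlation of Egfr was 0.652 and 0.628 with Has2, 0.324 and 0.362 with Tnfaip6, -0.369 and -0.218 with Ptgs2 and -0.631 and -0.160 with Vcan. Has2 had correlations of 0.745 and 0.631 with Fst and of -0.648 and -0.625 with Amh. These are descriptions over 71 and 128 libraries, each of a pool of cells, which share depth, label prefix and the total that CPM is taken from. Without hyperovulation the correlation of Egfr and Inhba was 0.860 over 32 libraries and with it 0.907 over 96, although the level of Inhba was lower without. Vcan and Inhbb had a correlation of 0.614 without hyperovulation (32 libraries), of 0.0283 over the 96 libraries with it and of -0.476 in the 24 of these from mice of 2 months, and these differences were not tested.

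**Figure D5:**
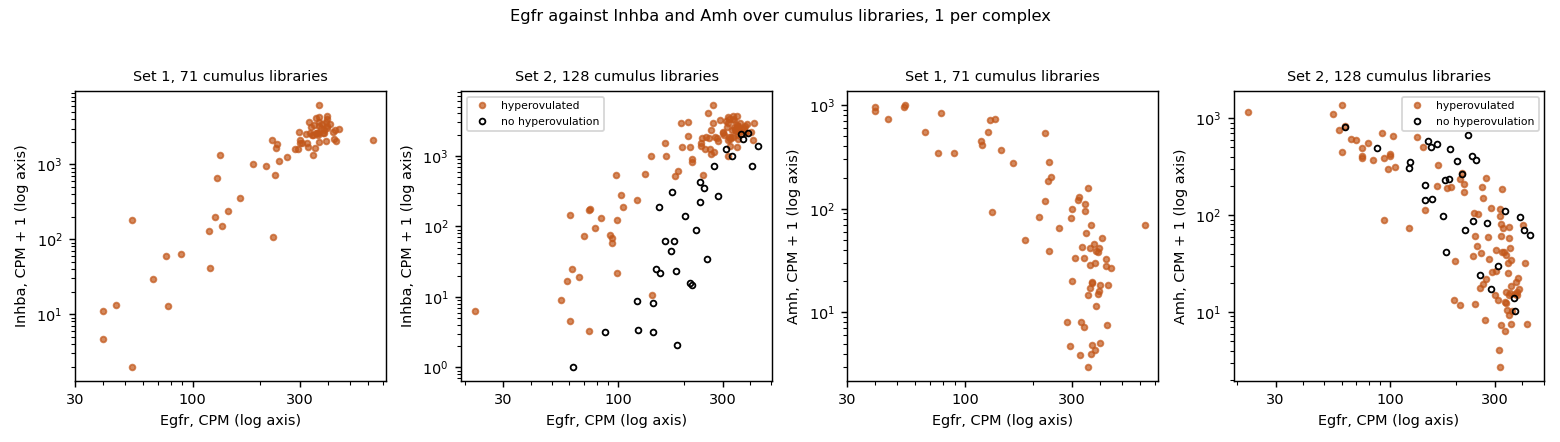
Inhba (left pair of panels) and Amh (right pair), each as CPM + 1, against Egfr in CPM, over the 71 cumulus libraries of the first set and the 128 of the second, on log axes with 1 point per complex, filled orange with and open black without hyperovulation. Inhba is higher and Amh lower in complexes with more Egfr in both sets, and many complexes without hyperovulation lie lower in Inhba at a like Egfr.

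Among 10470 genes compared over complexes within mice, those most like Egfr in the second set were Loxl1 (0.896, and 0.917 in the first set), Ltbp1 (0.888 and 0.951), Loxl2 (0.874 and 0.907), Slfn4 (0.871 and 0.867) and Hipk2 (0.859 and 0.890). Loxl1 and Loxl2 encode enzymes that cross-link collagen and elastin, and Ltbp1 a protein that binds latent TGF-beta. Those most opposite were Cited1 (-0.881 and -0.909), Isyna1 (-0.871 and -0.930) and Tmtc1 (-0.853 and -0.861). These genes were chosen by their values. Over the 30 mouse labels of the second set the genes most like Egfr were Slc16a1 (0.799, and 0.407 over 11 labels of the first set), Strn (0.785 and 0.417) and Cebpa (0.773 and 0.606). Among those most like Vcan were Galnt7 (0.868 and 0.724) and Sel1l (0.815 and 0.0905). Those most like Has2 were Zfp945 (0.693 and 0.364), Snapc1 (0.692 and 0.383) and Ing4 (0.680 and 0.378).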

How the data were processed

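RNA of single oocytes and of their own pooled cumulus cells was sequenced by RamDA-seq, which uses no molecular identifiers. The authors trimmed reads with Fastq-mcf, aligned them to GRCm38 with HISAT2 2.0.5 and counted them with featureCounts 1.5.1 against GENCODE vM15, per the labels and the study's methods, sharing reads with several matches among them. The deposited expected counts were therefore not all whole (36.8% and 35.1% of nonzero values were not), and they were rounded after summing. The deposited RPKM values, made by the authors from these counts, were used only for gene lengths. Strand use in counting is not given in the sources used here. The lysates of oocytes and cumulus cells were diluted differently.

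The 9 genes, the gene lists, the markers and the comparisons were chosen with earlier results of these data known. Groups came from the labels, and 399 of 401 libraries entered the tests. Counts were summed per mouse label and cell type, and genes counted in 5 or more libraries were tested with edgeR 4.0.16 (R 4.3.3) by the quasi-likelihood test, with TMM factors, all groups of 1 set and cell type in 1 fit and Benjamini-Hochberg adjustment at 5%. The study's own test took single libraries of 2 groups, which is an alternative here. The comparison of cell types had the mouse label as a block, since both libraries of a complex come from 1 animal. SE is the log2 difference divided by the square root of F. Limits given for 0 counts (3 counts) cover counting error only. Alternatives were DESeq2 1.42.0, RLE factors, other count filters, the label prefix (B1 or B2) as a covariate, only the 2 groups, libraries as units, each mouse left out, all deposited libraries and, chosen after seeing the data, CR libraries thinned to the middle group's median depth and, for the comparison of cell types, no normalization factors. Tests were checked on simulated data. Levels are CPM (counts per megacount of library total), and correlations used log2 of CPM plus 1. Named were the 9 members, from the lists together, in each comparison, at most the 4 called genes of largest log2 difference with a mean of at least 8 CPM, and for members of at least 5 CPM the 3 genes most alike over mice, of which 1 is not reported here. Tables were read with Python 3.11.15, pandas 2.3.3 and numpy 2.4.6, and figures drawn with matplotlib 3.10.9.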

Additional observations from a re-analysis of the deposited data

Results flagged for a closer look

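Of 54 groups of 4 to 10 mouse labels, 3 held 1 label far from the others by Dixon's test, and chance gives about 5%. Ptgs2 in cumulus cells of 1 mouse without hyperovulation was at 27.05 CPM, where the other mice of the group of 8 ranged from 1.85 to 11.7 CPM. This mouse held the complex at 98.4 CPM of Ptgs2. Ptx3 in cumulus cells of 1 hyperovulated mouse of 2 months was at 3.99 CPM, where the other mice of the group of 5 ranged from 0.458 to 1.19 CPM. Ptgs2 in oocytes of 1 mouse of 9 months of the second set was at 1.97 CPM, below the range of 4.71 to 5.15 CPM of the other mice of the group of 4.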

How the results depend on the processing

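Of 253 counts of called members under alternatives of the 17 comparisons, 239 equalled or were within 1.5 times the reported count and 14 were not. With libraries as units the count became 1 for old against young cumulus cells (Tnfaip6), 4 against 2 months (Ptx3), 14 against 2 months (Ereg) and with against without hyperovulation (Vcan). For hyperovulation it also became 1 with DESeq2, with filterByExpr and with the label prefix as a covariate, all for Vcan, and was 0 to 1 with each mouse left out. For oocytes of CR against middle mice it was 2 with DESeq2, with every gene that had a count and with libraries as units, 0 with all deposited libraries, and 0 to 1 with each mouse left out. The cause of these changes was not tested. Without the mouse as a block, which the shared animals call for, the cell type comparisons called 8 and 8 members and no call changed. Over all other alternatives they called 6 to 8 and 7 to 8. Egfr between cell types turned to -0.0669 with RLE factors and to -0.0669 with DESeq2 in the first set, and to -0.53 and -0.19 with no normalization factors, as did Ptgs2 of the second set (-0.22), all log2 differences. DESeq2 was not run for the cell types of the second set.

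Counts over all genes moved too. At most 9 members were tested in a comparison, so how far the 2 kinds of count moved cannot be compared. From the reported 1, 6 and 0 genes for middle against young, old against young and old against middle cumulus cells, the alternatives gave 0 to 331, 0 to 914 and 0 to 10. From 17 for CR, 0, 21 and 20 for 4, 9 and 14 against 2 months, 0 for 14 against 9 months and 541 for hyperovulation they gave 0 to 887, 0 to 129, 2 to 441, 6 to 388, 0 to 32 and 211 to 3181. In oocytes 0 for old against young, 2081 for CR, 56 for 14 against 2 months and 0 for hyperovulation became 0 to 1707, 785 to 7583, 30 to 258 and 0 to 7, the highest each time with libraries as units. The differences between sets, 0 and 0, became 0 to 7 and 0 to 10. With library totals of 510029 to 4536690 counts, genes at or near 1 CPM, such as Ptx3, Areg and Ereg, rest on single reads.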

Other observations

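Over cumulus complexes within mice, the genes with the highest correlation with Vcan in the second set (128 libraries) were Scara5 (0.731, and 0.735 over the 71 libraries of the first set), Galnt7 (0.719 and 0.306) and Scube1 (0.718 and 0.300). The lowest were those of Map4k4 (-0.766 and -0.334), Mmp11 (-0.740 and -0.532) and Itm2b (-0.737 and -0.444). Scara5 alone of these was above 0.7 in both sets. The genes were chosen by these values among 10470, and the libraries share depth, label prefix and the total that CPM is taken from.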
